A study of Mus musculus with 6 samples.

Results

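The Hox genes read in cultured mouse pancreatic buds were mainly those of paralogue groups 2 to 9, led by Hoxa5, Hoxb4 and Hoxb6, whereas those of groups 10 to 13 were at or near 0 reads. They were taken from the deposited table as every protein-coding row whose symbol begins with Hoxa, Hoxb, Hoxc or Hoxd followed by a digit, which gave 40 rows with 39 symbols (Hoxd4 has 2 rows) among 54532 rows in all. Of these 40 rows, 31 had at least 1 read in some library, 21 had enough reads to be tested between groups, and 17 reached a mean FPKM of 1 over the 6 libraries, FPKM being the read level corrected for gene length and depth. None of the 21 tested Hox genes passed the test between treated and control buds.

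The buds came from mouse embryos at E12.5 and were kept as explants for 2 days in M199 medium with 10% fetal bovine serum. Both groups had 0.1% DMSO. Control buds (n = 3 libraries) had this vehicle alone, and treated buds (n = 3 libraries) had 0.1 µM TBZ from the start of the culture to its end. TBZ is tetrabenazine, a drug that blocks VMAT2, the carrier that loads monoamines into vesicles, and the labelled comparison is of TBZ with vehicle. The strain, the number of buds pooled per library and the litter of each library are not given in the sources used here. The p-values therefore cover the spread among these libraries only, which may be technical. A bud is a mixed tissue of epithelium, mesenchyme and smaller populations, and in such bulk RNA fewer cells of a type and less RNA per cell cannot be told apart.

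Hox genes encode homeodomain transcription factors that set positional identity along the body axis. In mammals they lie in 4 clusters, and the order of genes along a cluster follows the order in which they are used in time and from head to tail, with low paralogue numbers in anterior and high numbers in posterior tissue. The proteins bind DNA together with cofactors of the PBX, MEIS and PKNOX families, and in gut organs much of the Hox code is carried by the mesenchyme.

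The clusters lie, in mm10 and by the outermost protein-coding members, on chromosome 6 (Hoxa, 11 rows) and at chr11:96194316-96368256 (Hoxb, 10 rows), chr15:102921103-103036852 (Hoxc, 9 rows) and chr2:74668310-74765142 (Hoxd, 10 rows). The 250 bases before the RefSeq start (GRCm38.p6) of 3 Hox genes are printed here because the results turn on them: Hoxa5 has the highest level of all, Hoxb4 the highest of its cluster, and Hoxb8, in the same cluster as Hoxb4, the smallest p of all Hox genes between groups. The stretches are chr6:52204588-52204837 on the minus strand (Hoxa5), chr11:96318017-96318266 on the plus strand (Hoxb4) and chr11:96281655-96281904 on the plus strand (Hoxb8), each written 5′ to 3′ in the direction of the gene, with matches to 6 motifs in capitals.
Hoxa5: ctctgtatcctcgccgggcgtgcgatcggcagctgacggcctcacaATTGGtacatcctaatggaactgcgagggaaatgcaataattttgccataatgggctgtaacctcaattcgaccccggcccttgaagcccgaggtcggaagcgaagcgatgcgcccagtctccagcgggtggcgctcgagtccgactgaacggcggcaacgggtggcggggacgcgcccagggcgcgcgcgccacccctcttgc
Hoxb4: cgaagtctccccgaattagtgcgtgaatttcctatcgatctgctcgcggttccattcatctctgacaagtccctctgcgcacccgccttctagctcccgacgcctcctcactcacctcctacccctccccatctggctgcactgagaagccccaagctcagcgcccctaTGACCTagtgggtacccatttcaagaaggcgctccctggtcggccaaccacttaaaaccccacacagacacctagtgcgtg
Hoxb8: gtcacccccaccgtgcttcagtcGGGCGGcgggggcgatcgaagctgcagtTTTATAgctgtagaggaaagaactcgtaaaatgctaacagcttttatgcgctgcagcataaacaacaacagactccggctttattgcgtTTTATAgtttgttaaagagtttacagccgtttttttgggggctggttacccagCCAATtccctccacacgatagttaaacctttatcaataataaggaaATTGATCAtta
Both strands were searched for TATAAA as the TATA box, then for CCAAT as the box named after these letters. The search also took GGGCGG as the GC box, with TAATTA as the core that homeodomains prefer. The composite element of PBX and Hox proteins was searched as TGATNNAT, where N is any base. Single repeats bound by nuclear receptors were searched as AGGTCA. None of these strings contains another. The Hoxa5 stretch holds CCAAT on the reverse strand, and the Hoxb4 stretch holds AGGTCA on the reverse strand. The Hoxb8 stretch holds TATAAA at 2 places on the reverse strand. It also has a CCAAT match and a GC box match as written, and a match to the PBX and Hox composite on the reverse strand.

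RefSeq promoters were found for 22 of the 39 symbols, with 24 starts in all. CCAAT was in 14 of these 24 stretches (58.3%) against 33.8% of all 32851 mouse promoters in the same table, GGGCGG in 10 (41.7% against 32.7%) and AGGTCA in 6 (25.0% against 14.0%). The TATA box and the PBX and Hox composite were each in 4 (16.7%), against 12.4% and 7.68% of all promoters, and TAATTA was in 2 (8.33% against 4.84%). These are matches of letters and say nothing of binding. The median GC content of Hox promoters was 58.6% against 52.4% of all promoters, and the median number of CpG sites over all promoters was 6. Hox promoters of genes at a mean FPKM of 1 or more (9 promoters, median GC 58.0%, 12 CpG) were close in composition to those of genes under it (15 promoters, 59.2%, 13 CpG).

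The libraries held from 35.8 to 50.6 megareads counted on genes. Hox genes took 0.0220% ± 0.00186 of the counts in the controls against 0.0195% ± 0.00142 under TBZ (mean ± SD, n = 3 libraries a group). Markers of the labelled tissue were present in every library: the 6 pancreatic epithelium markers (Pdx1, Ptf1a, Sox9, Nkx6-1, Neurog3, Cpa1) summed to 1316 to 1471 CPM (the count scaled to library depth) in control and 1768 to 1974 CPM in TBZ libraries, and the 8 mesenchyme markers (Col1a1 and Pdgfra among them) to 5813 to 6560 and 5825 to 6672 CPM. Control replicate 3 stood apart in some foregut genes but not in others, and their values are given after those of the Hox genes.

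Within the bud, levels differed by paralogue number and by cluster. FPKM is corrected for gene length, so it can be compared between genes. Paralogues 1 to 5 held 63.2% of the summed Hox FPKM over the 6 libraries, paralogues 6 to 9 held 36.7%, and paralogues 10 to 13 held 0.0830%. The Hoxb cluster held 46.7%, Hoxa 37.6%, Hoxc 10.7% and Hoxd 5.02%. Group 5 was the largest single group (32.4%), before groups 4 (18.8%), 6 (13.7%), 7 (10.2%) and 8 (9.89%), then 3 (6.26%), 2 (5.00%) and 9 (2.93%).

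**Figure D1:**
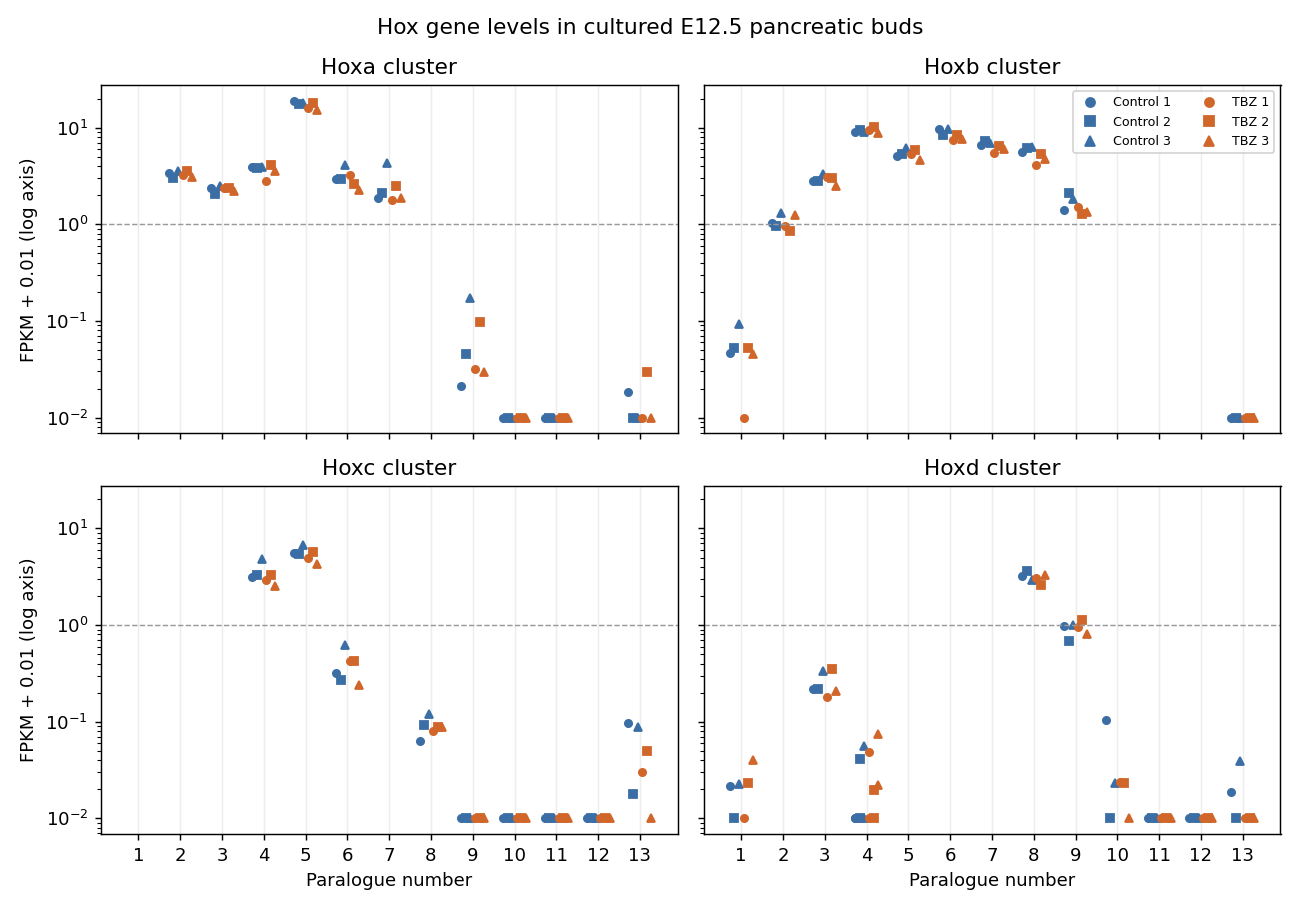
FPKM + 0.01 of Hox genes by cluster and paralogue number, on a log axis, with 1 point per library (control blue, TBZ orange). A level of 0 is drawn at 0.01, the dashed line marks an FPKM of 1, and Hoxd4 has 2 rows. Points of paralogues 2 to 8 in Hoxa and Hoxb sit near or above the line, and those of paralogues 10 to 13 at the bottom.

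Hoxa5, a regulator of lung and foregut mesenchyme, had the highest level of all Hox genes. Its FPKM was 19.0, 17.7 and 18.0 in the 3 control libraries, in the order of their numbers, and 15.9, 18.0 and 15.1 in the 3 TBZ libraries. Control replicate 1 was the highest and TBZ replicate 3 the lowest, and the groups overlapped through TBZ replicate 2. In every library Hoxa5 stood above all other members of its cluster. The next members, Hoxa4, Hoxa2, Hoxa6, Hoxa7 and Hoxa3, each overlapped with their neighbour in the order of levels and lay between 1.77 and 4.34 FPKM over all libraries. Hoxa2, which sets the identity of the second branchial arch, lay from 3.04 to 3.57 FPKM, and Hoxa3, needed for the thymus and parathyroid, from 2.04 to 2.46 FPKM. Hoxa9 lay below them in every library, at 0.0115 to 0.163 FPKM.

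The Hoxb cluster was the most broadly read, with 8 of its 10 rows at a mean FPKM of 1 or more. Hoxb4, known for its effect on blood stem cells, had an FPKM of 8.96, 9.33 and 9.01 in control and 9.46, 10.1 and 8.80 in TBZ libraries. Hoxb6, a gene of the lateral plate mesoderm, had an FPKM of 9.62, 8.29 and 9.66 in control and 7.50, 8.29 and 7.70 in TBZ libraries. Over the 6 libraries Hoxb4 and Hoxb6 overlapped with each other in level, and so did Hoxb7 with Hoxb8 and Hoxb8 with Hoxb5, whereas Hoxb6 was above Hoxb7, Hoxb5 above Hoxb3 and Hoxb3 above Hoxb9 in all libraries of one against all libraries of the other. Hoxb9 and Hoxb2 overlapped at the lower end, at 1.26 to 2.08 and 0.835 to 1.31 FPKM. Hoxb1, a hindbrain gene, had 0 to 8 reads per library and was not tested, and Hoxb13 had none.

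In Hoxc, only paralogues 4 and 5 reached an FPKM of 1. Hoxc5 had an FPKM of 5.54, 5.46 and 6.80 in control and 4.94, 5.63 and 4.23 in TBZ libraries, and overlapped with Hoxc4 (2.53 to 4.83 FPKM) over all libraries. Hoxc6, a gene of the upper thoracic level, followed at 0.232 to 0.614 FPKM, and Hoxc8 at 0.0527 to 0.110 FPKM. In Hoxd the order was turned, since the highest member was of paralogue 8. Hoxd8 had an FPKM of 3.22, 3.64 and 2.92 in control and 3.05, 2.60 and 3.30 in TBZ libraries, above Hoxd9 (0.681 to 1.12 FPKM) and Hoxd3 (0.171 to 0.339 FPKM) in every library. Hoxd1 and both Hoxd4 rows had at most 6 reads in a library.

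The posterior genes were nearly silent at this depth. Of the 12 rows of paralogues 10 to 13, 8 had no read in any library, and the others (Hoxa13, Hoxc13, Hoxd10 and Hoxd13) had at most 10 reads in a library, with a summed FPKM of 0.0720. These genes pattern the limb, the kidney, the hindgut and the genital tubercle. Counting Hoxc9, 9 rows were at 0 in all 6 libraries, and a floor of 3 reads per library allows them a level of up to 0.0141 to 0.0812 FPKM, depending on gene length. A floor of this kind covers counting error only.

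Some levels depend on bases shared with other genes. In GENCODE M21, where 39 of the 40 rows were found, 16 shared an exonic base with another gene and 3 shared the larger part of their exonic length: Hoxb3 (52.9%, with the antisense Hoxb3os), Hoxd3 (62.8%) and one Hoxd4 row (52.3%). The strand setting and the treatment of overlapping genes in the counting are not given in the sources used here, so reads of a Hox gene and of its antisense partner cannot be told apart. With all counted reads divided by the exonic bases of no other gene, Hoxb3 came to 6.15 FPKM in place of 2.89. That is an upper limit, because reads on the shared bases may be among those counted. On this measure Hoxb3 was above Hoxb5 (5.58), and the highest member of each of the 4 clusters was the same. Hoxa5, Hoxb4, Hoxb6 to Hoxb9, Hoxc4, Hoxc6, Hoxd8 and Hoxd9 shared no exonic base, whereas Hoxa7 shared 20.4% with Hoxaas3 on the other strand.

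No Hox gene passed the test in TBZ against control buds. The edgeR quasi-likelihood test with Benjamini-Hochberg adjustment over 18226 tested genes gave adjusted p-values from 0.300 to 0.998 for the 21 tested Hox genes, so 0 of 21 were under 0.05, where 34 of all tested genes (0.187%) were. DESeq2 (0.71% of all genes called), edgeR without a filter on low counts (1.42%) and limma on log2 FPKM (0.0713%) called none of them either. In the authors' deposited table no Hox gene was among the 222 genes under 0.05 (0.767%), with 0.119 for Hoxb8 as the smallest adjusted p. The deposited values were close to those of DESeq2 run here (222 genes called, Hoxb8 log2 fold change -0.35 in both). They are therefore not separate evidence. At an unadjusted p under 0.05 in edgeR there were 3, Hoxb8, Hoxb6 and Hoxa5, all with lower values in TBZ; that is 14.3% of 21, against 9.61% of all tested genes in either direction and 4.54% in that direction.

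The log2 fold change of TBZ over control was negative for 18 of 21 tested Hox genes (85.7%, against 49.9% of all tested genes), with a median of -0.14 where all tested genes had a median of 0.00031. It was negative for 6 of 7 tested genes in Hoxa, 7 of 8 in Hoxb, 3 of 3 in Hoxc and 2 of 3 in Hoxd. The genes share their libraries, so they do not count as separate evidence of a direction. The summed Hox level was 88.5, 88.2 and 98.4 FPKM in control and 79.7, 88.6 and 77.0 FPKM in TBZ libraries, a mean of 91.7 ± 5.79 against 81.8 ± 6.07 (SD, n = 3 each). TBZ replicate 2 was above control replicates 1 and 2, so the groups overlapped. The count of negative values was 11 of 21 without control replicate 3 and 12 of 21 without TBZ replicate 3.

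**Figure D2:**
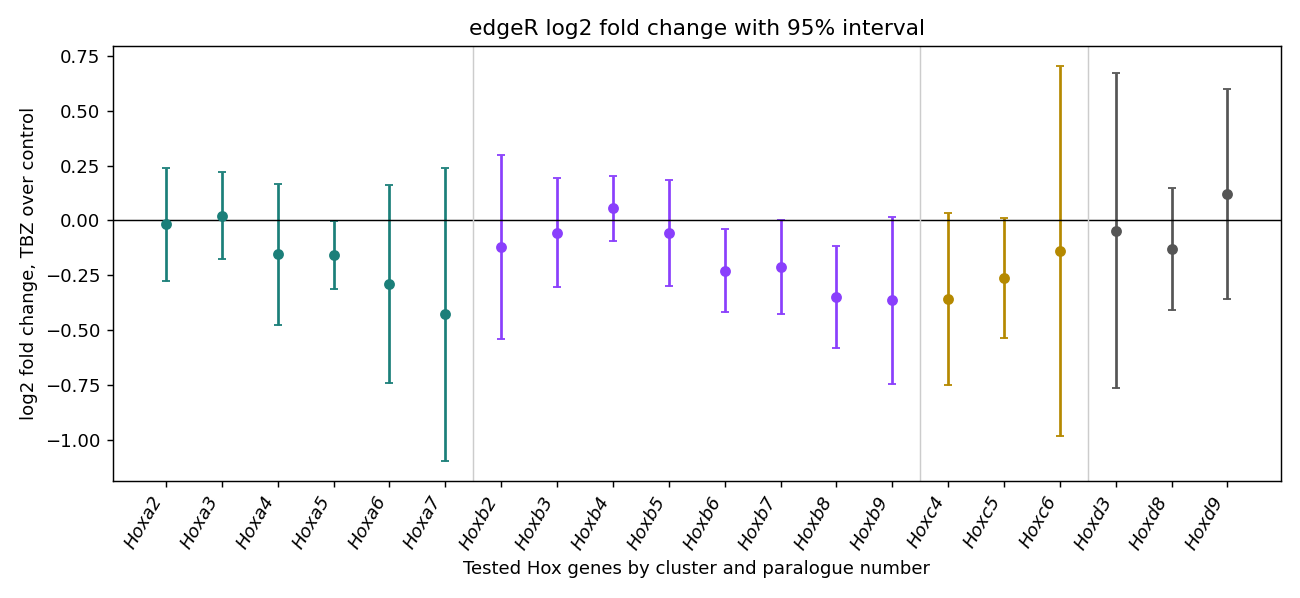
log2 fold change of TBZ over control (edgeR) for tested Hox genes by cluster and paralogue number, with 95% intervals as bars and the line at 0. The points of Hoxb6 to Hoxb9 lie below 0 and those of Hoxb2 to Hoxb5 from -0.12 to 0.05. The bars of Hoxb7 and Hoxb9 reach just past 0, and those of Hoxb2 to Hoxb5 cross it. None of the genes passed the adjusted test.

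The smallest p-values were those of Hoxb8 and Hoxb6, in the more posterior part of Hoxb. Hoxb8, a gene known from myeloid progenitors and the thoracic axis, was at 14.7, 16.2 and 16.8 CPM in control and 10.9, 14.0 and 12.6 CPM in TBZ libraries. All 3 TBZ libraries were below all 3 controls. Its log2 fold change was -0.35 ± 0.10 (SE, 95% interval -0.58 to -0.12; edgeR adjusted p = 0.300). It stayed between -0.44 and -0.26 when each library was left out in turn.

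Hoxb6 was at 18.9, 16.3 and 19.0 CPM in control and 14.8, 16.3 and 15.2 CPM in TBZ libraries, with a log2 fold change of -0.23 ± 0.08 (SE, edgeR adjusted p = 0.426). Its groups did not overlap, but control replicate 2 and TBZ replicate 2 nearly met. Hoxb7 (-0.21 ± 0.09, edgeR adjusted p = 0.526) and Hoxb9 (-0.36 ± 0.17, edgeR adjusted p = 0.538), both genes of the thoracic axis, had values of the same sign and were named after their values were seen. Hoxb7 did not overlap between groups, at 10.2, 11.2 and 10.8 CPM against 8.45, 10.1 and 9.25 CPM, while Hoxb9 did, at 3.61, 5.36 and 4.67 CPM against 3.91, 3.24 and 3.45 CPM. Counts of non-overlap were 3 of 21 with TBZ lower (Hoxb6, Hoxb7 and Hoxb8; 14.3%, against 7.03% of all tested genes) and 0 of 21 with TBZ higher (8.47% of all). All of Hoxb6 to Hoxb9 had a negative value without each library in turn, the value of Hoxb9 being -0.22 without control replicate 2.

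The anterior part of the same cluster lay closer to 0. Hoxb4 was at 23.0, 24.0 and 23.2 CPM in control and 24.3, 25.9 and 22.7 CPM in TBZ libraries, with overlapping groups. Its log2 fold change was 0.05 ± 0.07 (95% interval -0.09 to 0.20; edgeR adjusted p = 0.834), and Hoxb2, Hoxb3 and Hoxb5 had -0.12, -0.06 and -0.06. Over all clusters, a split made after the values were seen gave a median of -0.23 for the 9 tested genes of paralogues 6 to 9, of which 8 were negative, and of -0.06 for the 12 of paralogues 1 to 5, of which 10 were negative. Without control replicate 3 these medians were -0.19 (6 of 9 negative) and 0.03 (5 of 12). The difference between both parts was not tested.

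Hoxa5 was the third Hox gene by p. It was at 35.6, 33.4 and 33.9 CPM in control and 29.9, 33.8 and 28.5 CPM in TBZ libraries, and TBZ replicate 2 lay within the controls. Its log2 fold change was -0.16 ± 0.07 (SE, edgeR adjusted p = 0.506), and the value without each library in turn ran from -0.23 to -0.11. The Hoxc genes had wider errors: Hoxc5 was at 17.2, 16.9 and 21.1 CPM in control and 15.3, 17.4 and 13.1 CPM in TBZ libraries, with overlap and a log2 fold change of -0.26 ± 0.12 (SE, edgeR adjusted p = 0.538). Leaving out control replicate 3 gave -0.15 for Hoxc5, leaving out TBZ replicate 3 gave -0.17, and the value farthest from 0 was -0.37, with TBZ replicate 2 left out.

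The 3 genes with a positive value, Hoxb4, Hoxd9 and Hoxa3, all overlapped between groups. Hoxd9, a gene of the lumbar axis and limb, was at 2.09, 1.46 and 2.11 CPM in control and 2.01, 2.41 and 1.71 CPM in TBZ libraries (log2 fold change 0.12 ± 0.21, edgeR adjusted p = 0.894). Hoxa3 was at 14.1, 12.3 and 14.8 CPM against 14.1, 14.4 and 13.4 CPM (0.02 ± 0.09, edgeR adjusted p = 0.960). Both turned to small negative values without control replicate 2, -0.036 for Hoxd9 and -0.051 for Hoxa3. Hoxd8, the highest Hoxd gene, was at 8.86, 10.0 and 8.04 CPM against 8.40, 7.14 and 9.11 CPM, with overlap and a value of -0.13 ± 0.12 (SE, edgeR adjusted p = 0.775). That value was -0.037 without TBZ replicate 2, -0.041 without control replicate 2, -0.20 without control replicate 3 and -0.21 without TBZ replicate 3.

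The spread between libraries was not the same for all members. Control replicate 3 was the highest of the 6 libraries for 11 of 21 tested Hox genes (52.4%, against 24.4% of all tested genes) and the lowest for none, and TBZ replicates 1 and 3 were the highest for none. TBZ replicate 3 was the lowest for 8 (38.1%, against 17.0% of all) and TBZ replicate 1 for 6 (28.6%, against 15.8%). The median log2 deviation of the 21 genes from the control mean was -0.09, -0.11 and 0.11 in the control libraries and -0.18, -0.02 and -0.25 in the TBZ libraries. TBZ replicate 2 thus lay above control replicates 1 and 2 on this measure.

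**Figure D3:**
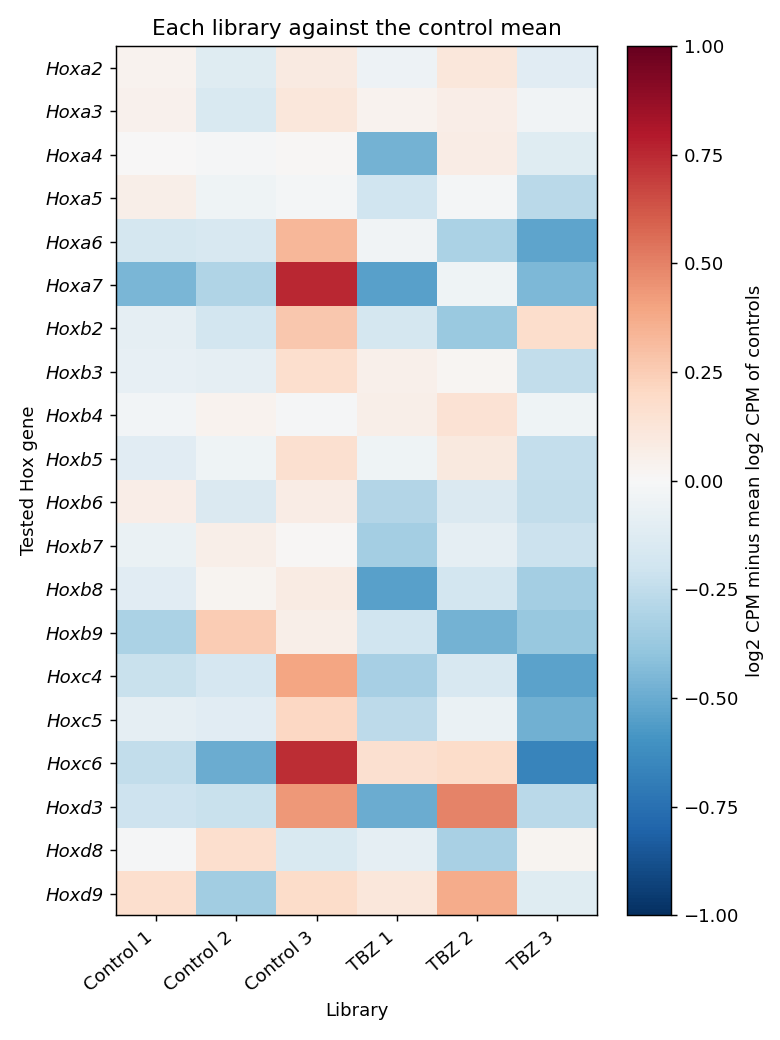
log2 deviation of tested Hox genes from its control mean, by library, as a colour from blue (lower) to red (higher), with genes ordered by cluster and paralogue. Control replicate 3 is highest for 11 of these genes, most of all for Hoxa7, Hoxc4 and Hoxc6, and TBZ replicates 1 and 3 are highest for none.

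Hoxc6 had the largest ratio of highest to lowest library among tested Hox genes, 2.65. It was at 0.747, 0.631 and 1.48 CPM in control and 0.991, 1.01 and 0.561 CPM in TBZ libraries, and control replicate 3 stood above all others. Its log2 fold change of -0.14 ± 0.37 (95% interval -0.98 to 0.70; edgeR adjusted p = 0.935) became 0.32 without that library. Hoxa7, with a ratio of 2.45 and named after its values were seen, had the same library on top. It was at 5.42, 6.03 and 12.52 CPM in control and 5.10, 7.19 and 5.44 CPM in TBZ libraries. Control replicate 3 had 2.19 times the mean of the other controls for Hoxa7, 2.15 for Hoxc6, 1.57 for Hoxd3, 1.51 for Hoxc4 and 1.42 for Hoxa6. The log2 fold change of Hoxa7 was -0.43 ± 0.30 (SE, edgeR adjusted p = 0.691) and 0.05 without control replicate 3, and that of Hoxc4 was -0.36 ± 0.17 (SE, edgeR adjusted p = 0.554) and lay between -0.47 and -0.13 with each library left out in turn, the latter with control replicate 3 left out.

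Some markers of neighbouring foregut tissue were high in the same library. Pitx1, a gene of stomach mesenchyme, was at 5.93, 6.72 and 47.8 CPM in control and 1.51, 7.24 and 1.29 CPM in TBZ libraries, and Sox2, a gene of the stomach and oesophagus epithelium, at 2.35, 2.35 and 12.7 CPM against 0.818, 1.52 and 0.420 CPM. Foxf1, a gene of gut mesenchyme, was at 18.1, 17.8 and 37.8 CPM against 7.75, 27.9 and 7.04 CPM. For these genes too, TBZ replicates 1 and 3 were the lowest. Pitx1, Sox2 and Foxf1 were chosen after their values were seen, and other members of the mesenchyme lists were mixed in control replicate 3. Tcf21, at 72.3, 77.3 and 85.9 CPM in the controls, and Twist1, at 4.61, 5.19 and 5.96 CPM, were highest there. Nkx3-2, at 95.2, 97.4 and 81.6 CPM in the controls, and Tlx1, at 104, 104 and 98.0 CPM, were lowest of the controls there, as were Col1a1, Vim and Pdgfra, and Barx1 and Nkx2-5 lay between the other controls. Of the 6 foregut epithelium markers, Nkx2-1 was at 0 in every library. The 6 summed to 7.73, 7.36 and 34.4 CPM in control and 6.91, 6.87 and 5.38 CPM in TBZ libraries. The high end of the controls was thus control replicate 3 alone. All 4 of these markers that were tested had a negative log2 fold change (0 called). The 5 stomach and spleen mesenchyme markers (3 negative, 0 called) summed to 341 to 377 and 287 to 373 CPM. The 5 mesothelium markers (5 negative, 0 called) summed to 268 to 316 and 240 to 300.5 CPM. In both of these sums control replicate 3 was the highest library, and TBZ replicates 1 and 3 were the lowest. In the stomach and spleen list Pitx1 was the only member highest in control replicate 3. The rank of that library in this sum therefore rests on Pitx1, a gene chosen after its values were seen. The part of these tissues in the Hox values was not tested.

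**Figure D4:**
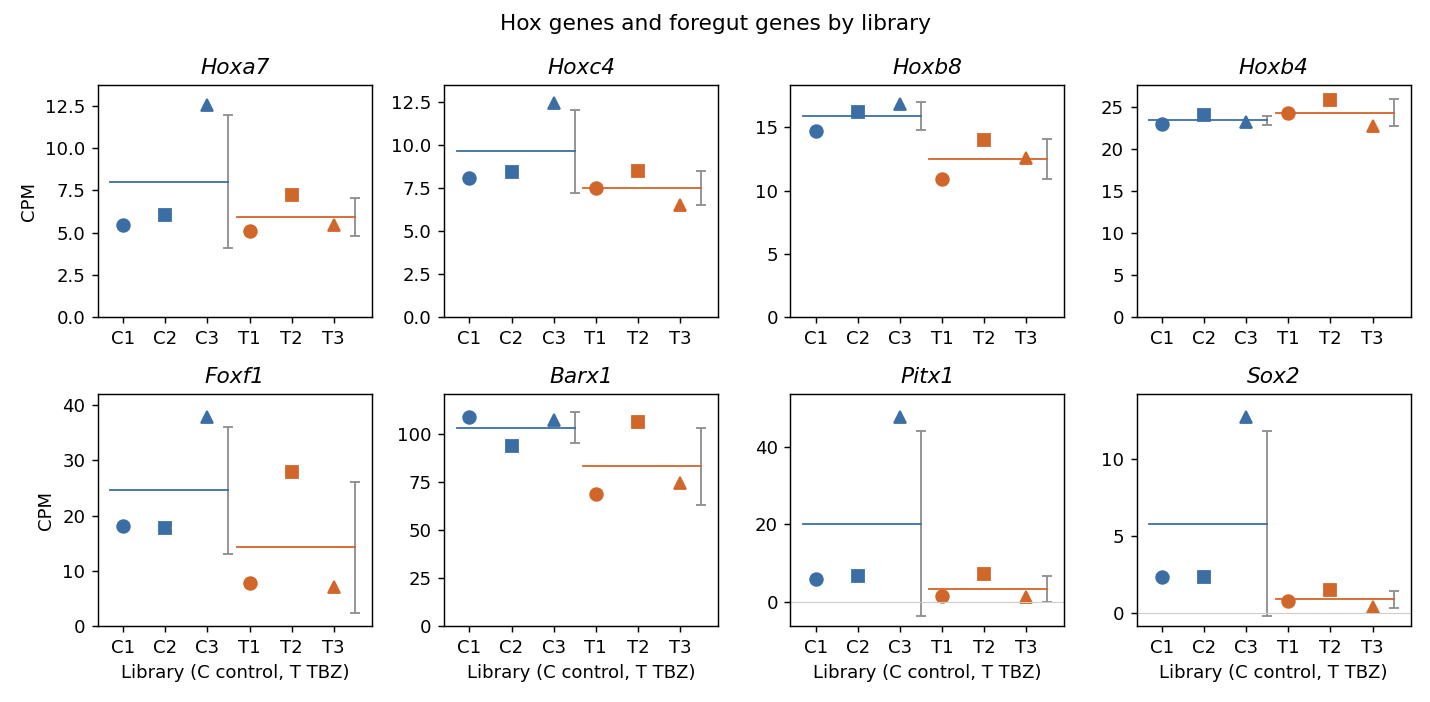
CPM by library of 4 Hox genes (top) and 4 foregut genes (bottom), with group means as lines and SD as bars beside the points (n = 3 each). Control replicate 3 (C3) stands above the other controls for Hoxa7, Hoxc4, Foxf1, Pitx1 and Sox2 and lies among them for Hoxb4.

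Markers of other populations were summed in the same way. The 9 neural crest and neuron markers (3 higher, 6 lower, 0 called) summed to 172 to 213 CPM in control and 203 to 216 CPM in TBZ libraries, and the 7 endothelium markers (6 higher, 1 lower, 0 called) to 425.5 to 427 and 428 to 461 CPM. The 6 blood and macrophage markers (1 higher, 5 lower, 0 called) summed to 252 to 282 and 247 to 291 CPM. The 8 mesenchyme markers (3 higher, 5 lower, 0 called) overlapped between groups, while the 6 pancreatic epithelium markers were all higher in TBZ, 1 of them past the test (Cpa1, edgeR adjusted p = 0.0316, log2 fold change 0.45). Their part in the Hox values was not tested. The 7 intestinal epithelium markers summed to 10.7 to 12.4 and 11.5 to 14.7 CPM, with Apoa4 at 0, and the 10 general epithelium markers (6 higher, 4 lower, 0 called) to 1896 to 2144 and 2051 to 2284 CPM.

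Non-coding genes of the clusters did not pass either. Of 10 such rows, 6 were tested and 0 passed in edgeR. Hotair and Hottip, which lie among the posterior genes, had no read, and Hoxa11os had 1. Hotairm1 had a log2 fold change of -0.14, Hoxaas2 -0.25, Hoxaas3 0.03, Hoxb5os 0.00, Hoxb3os 0.15 and Hoxd3os1 -0.48, the last at 0.280 to 0.651 CPM.

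The cofactors that Hox proteins bind with were read throughout, and 0 of 9 passed (edgeR), with 1 higher, 8 lower and a median log2 fold change of -0.07. Meis3 was at 24.5, 23.5 and 24.7 CPM in control and 21.3, 20.4 and 21.5 CPM in TBZ libraries. Its groups did not overlap, with a log2 fold change of -0.20 ± 0.06 (SE, edgeR adjusted p = 0.295), and Meis1 had -0.14 (edgeR adjusted p = 0.439). The related ParaHox and Evx genes were largely silent: of 8, Pdx1 and Evx1 were tested and 0 passed, Gsx2 and Evx2 had no read, and the caudal genes Cdx1, Cdx2 and Cdx4 stayed at or under 0.168 CPM. Pdx1, the pancreatic ParaHox gene, was at 56.8, 46.9 and 39.8 CPM in control and 61.8, 62.3 and 64.9 CPM in TBZ libraries, with all TBZ libraries above the controls and a log2 fold change of 0.40 ± 0.11 (SE, edgeR adjusted p = 0.249).

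Genes that regulate Hox clusters, and genes that only flank them, were also taken as lists. Of 17 tested retinoic acid genes, 5 were higher, 12 lower and 0 past the test, with a median of -0.18. Rarb, a retinoic acid receptor, was at 7.32, 7.93 and 12.1 CPM in control and 5.50, 6.87 and 6.05 CPM in TBZ libraries. Its log2 fold change was -0.57 ± 0.19 (SE, edgeR adjusted p = 0.373). Control replicate 3 was the highest library for Rarb, as for 11 of 21 tested Hox genes. Aldh1a1, which makes retinoic acid, had -0.33 (edgeR adjusted p = 0.259). Of 25 polycomb and trithorax genes, which hold Hox clusters off or on, 12 were higher, 13 lower and 0 past the test (median -0.01), with Cbx8 at -0.29 (edgeR adjusted p = 0.248) and Mtf2 at -0.13 (edgeR adjusted p = 0.333). Of 5 tested axial signals 1 was higher and 4 lower, with 0 called (median -0.04; Wnt5a -0.12, edgeR adjusted p = 0.562; Acvr2a -0.04, edgeR adjusted p = 0.834). The genes flanking the clusters had 4 higher and 7 lower of 11 tested, 0 called and a median of -0.01, with Snx10 at -0.17 (edgeR adjusted p = 0.374) and Skap2 at -0.14 (edgeR adjusted p = 0.551).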

How the data were processed

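Poly-A RNA of 3 control and 3 TBZ libraries was read in pairs. STAR, HTSeq and the build mm10 are named in the submitters' processing notes, with versions not given in the sources used here. Per the file headers the deposited table holds a read count and an FPKM value per library, a group mean of normalized counts (signal), and a log2 fold change, p-value and adjusted p-value, made by the authors with no tool named. The gene length is also deposited. All 54532 rows carry a gene ID.

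Counts were tested with the edgeR quasi-likelihood test (TMM scaling, filterByExpr, Benjamini-Hochberg over 18226 tested genes), with an adjusted p under 0.05 as called. The biological coefficient of variation was 8.30%. SE and 95% intervals come from this fit, CPM is TMM-scaled, and levels are the authors' FPKM. The code was tested on simulated data. Versions used: DESeq2 1.42.0, limma 3.58.1, edgeR 4.0.16, R 4.3.3. The labels do not name the animals behind a replicate.

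Full values were given for the highest gene of each cluster, the 3 smallest p-values in each direction and the largest ratio between libraries, and from each list for called genes or else the 2 smallest p-values. The members and lists were chosen with earlier results of these data known. As alternatives, the replicate block, no filter, RLE scaling, DESeq2, limma on log2(FPKM + 0.5) and log2(FPKM + 0.1), other level thresholds and leaving out each library were run. Levels from all counted reads per exonic base of no other gene (GENCODE M21) were added after seeing the data. Promoters are from RefSeq GRCm38.p6. The values of 1 member are not reported here, and it is in the counts and sums but not in the figures.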

Additional observations from a re-analysis of the deposited data

How the results depend on the processing

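The number of Hox genes past the test was 0 under every alternative run, and so was that of the non-coding rows. The smallest adjusted p of a Hox gene was 0.0621 in edgeR without a filter. Over all genes the number called was 34, against 222 with DESeq2, 445 without a filter, 13 and 14 with limma at a pseudocount of 0.5 and 0.1, and 5 to 36 with each library left out (13 without control replicate 2, 11 without TBZ replicate 1, 5 without TBZ replicate 3). The cause was not tested. With the replicate number as a block, 5 genes were called and no Hox gene. The labels do not say whether the numbers pair the samples. Same-numbered libraries had correlations of their deviations of 0.0017, -0.15 and -0.08, and different-numbered ones ran from -0.09 to 0.15. Both lie in a like range, so these values cannot decide on pairing.

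The median Hox log2 fold change of -0.14 lay between -0.27 (without TBZ replicate 2) and -0.053 (without control replicate 3) with each library left out. Values turned in sign for Hoxa3 (-0.051) and Hoxd9 (-0.036) without control replicate 2, for Hoxd9 (-0.01) without TBZ replicate 2, and for Hoxc6 without control replicate 3 (0.32) and without TBZ replicate 3 (0.08). With each library left out, the range was -0.051 to 0.080 for Hoxa3, -0.036 to 0.23 for Hoxd9 and -0.37 to 0.32 for Hoxc6. The other 103 alternative values of the Hox genes picked by rule (highest of a cluster, smallest p-values, largest ratio) kept their sign and their side of the threshold. Beyond these genes more values turned. Of the 18 tested Hox genes with a negative value, 10 kept it with each library left out. Without control replicate 3, Hoxa7 (0.05), Hoxb2 (0.03), Hoxb3 (0.04) and Hoxb5 (0.03) were among those that turned positive. The 17 Hox genes at a mean FPKM of 1 became 19 at 0.5 and 15 at 2. They became 20 at a mean TPM of 1, a level per length scaled to the same sum in every library. Without control replicate 3 there were 16 at a mean FPKM of 1. With 3 libraries a group, small differences such as those in Hoxb cannot be separated from the spread between libraries, and genes with few reads (Hoxb1, Hoxc8, paralogues 10 to 13) could not be compared.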
